A study of Mus musculus with 16 samples.

Results

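Genes of the apolipoproteins and of brain lipid export were followed in the brains of aged mice treated with adropin or with its diluent. The 10 genes were taken by symbol from the table of read counts per gene and are the apolipoprotein genes Apoe, Clu and Apod, the cholesterol-esterifying enzyme gene Lcat, the transporter genes Abca1, Abca7 and Abcg1, the receptor genes Lrp1 and Lrp8, and the oxysterol receptor gene Nr1h2. They are 10 of the 40481 genes listed, and all 10 were among the 14949 genes left after genes of low count were set aside. Male C57BL mice (C57BL/6J in the study's methods) were bought at 18 months of age and kept for 2 weeks before treatment. Mice of the adropin group were injected intraperitoneally each day with the synthetic peptide adropin(34-76), residues 34 to 76 of the protein and its predicted secreted domain, at 90 nmol/kg/d in saline with bovine serum albumin. The saline group was injected with the diluent alone. After 2 weeks of injections both groups went through behavioral tests while treatment went on, and brains were frozen after a fast of 6 h. Each treatment group held 15 mice, of which 8 per group were sequenced, and the brain region and the way the 8 were picked are not given in the sources used here. No genetic change is named for either group, and relations with Enho, the gene that encodes adropin, concern the endogenous transcript and not the injected peptide. A mouse is named here by its 2 label numbers, and what these stand for is not stated in the sources used here.

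Apolipoproteins carry cholesterol and phospholipid between the cells of the brain, which is closed off from the lipoproteins of the blood. Astrocytes secrete ApoE, the transporters ABCA1 and ABCG1 load it with lipid, LCAT esterifies the cholesterol it carries, and neurons take the particles up through receptors of the LDL receptor family. Liver X receptors such as LXRβ, the product of Nr1h2, sense oxysterols and switch on Abca1, Abcg1 and Apoe when cholesterol accumulates.

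Total counts ranged from 35026503 to 70314050 per mouse, and the members drew between 513 counts (Abca1) and 121580 counts (Apoe) in a mouse. Values are counts scaled to library depth with TMM factors (TMM-normalized CPM). RNA came from brain tissue and not from sorted cells, so that fewer cells of a type and less RNA per cell cannot be told apart. Markers of neurons, astrocytes, oligodendrocytes and microglia were counted in every mouse. Saline-treated mouse 8_3 stood apart in the tissue it held. Summed over the 5 choroid plexus markers tested (8 were listed), it had 2460 CPM, where the other saline mice had at most 328 and adropin-treated mice at most 73.4. Medians of that sum were 20.9 CPM in saline and 18.5 CPM in adropin. The saline mouse at 328 CPM therefore also lay far above the medians, and it stays in all values given without mouse 8_3. In mouse 8_3 the single cerebellar marker tested (4 were listed) stood at 91.7 CPM. It was at most 6.95 in the other saline mice and 7.24 in the adropin group. The choroid plexus score (mean z-scored log2 CPM of its markers) averaged -0.40 in adropin and 0.40 in saline (exact permutation p = 0.0413, adjusted p = 0.413 over 10 marker scores), with an exact permutation p of 0.0873 without mouse 8_3. It was the 1 score of 10 with an unadjusted p below 0.05 between groups, and its part in the comparison of the groups was not tested. It also had the highest Enho, Apod and Nr1h2 and the lowest Lrp8 of the 16 mice, and log2 fold changes and relations with Enho that it moved by over 1.5 times are given with and without it.

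Apoe was by far the most abundant member. Per kilobase of exon, levels averaged 965 CPM for Apoe, 252 CPM for Clu and 81.1 CPM for Apod over the 16 mice. The endocytic receptor Lrp1 followed at 30.3 CPM per kilobase, Nr1h2 at 21.4 and Lcat at 17.0. Abcg1 averaged 9.42 CPM per kilobase, Lrp8 6.21, Abca7 5.85 and Abca1 2.32. The ranges of neighbours in this order overlapped for Nr1h2 and Lcat (in that order in 15 of 16 mice), for Abcg1 and Lrp8 (in all 16 mice) and for Lrp8 and Abca7. The last pair kept its order in 11 of 16 mice and did not differ beyond its spread. All other neighbours were fully separate. The spread between mice was smallest for Clu, with a coefficient of variation of 5.45%, and widest for Apod, with 28.7%.

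The Abca1 promoter is shown because this transporter is the textbook target of liver X receptors, which bind a direct repeat of AGGTCA with 4 bases between its copies. In RefSeq on GRCm38, windows of 250 bases before the transcript start were found for 8 of the 10 members (12 windows, none for Clu or Abcg1). The repeat was searched on both strands, with at most 3 of its 12 letters mismatched and any 4 bases in the gap. It was found in 2 of the 12 windows, those of Abca1 and Lcat, and in 18.5% of all 32851 windows, so that a match is a description of the letters only. The Abca1 window is chr4:53159896-53160145, minus strand, and the capitals mark the match on the opposite strand, from 67 to 52 bases before the start, which reads GGGTTACTACCGGTCA there.
Abca1 promoter: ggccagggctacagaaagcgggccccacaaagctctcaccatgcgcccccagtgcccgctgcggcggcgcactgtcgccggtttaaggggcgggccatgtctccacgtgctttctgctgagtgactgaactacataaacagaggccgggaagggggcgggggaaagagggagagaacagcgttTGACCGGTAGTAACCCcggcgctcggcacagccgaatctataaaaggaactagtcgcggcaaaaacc

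Whether injected adropin altered these genes was asked first. None of the 10 members reached an unadjusted p below 0.05 (edgeR quasi-likelihood test), which was reached by 596 of 14949 genes, or 3.99% (1.86% higher and 2.13% lower in adropin). After Benjamini-Hochberg adjustment no gene passed (0.0%, edgeR, smallest adjusted p = 0.387), against 5 genes with DESeq2, and the adjusted p of the members ran from 0.874 to 0.996. The groups overlapped for every member. Fold changes, standard errors and 95% intervals below are from edgeR, and the p of a single member is from a two-sided exact permutation test of its log2 CPM between groups. The median log2 fold change was 0.015 over the 10 members and -0.0019 over all genes, with 6 members above 0 and 4 below.

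Among the secreted apolipoproteins, Apoe (chromosome 7, 19696109 to 19699188 on GRCm38, minus strand) ran from 1733 to 2446 CPM (median 2021) in adropin, and from 1818 to 2498 (median 1977) in saline. The saline mice split into 3 at 2436 CPM or more and 5 at 1978 or less, and 1 adropin mouse lay as high as the upper 3. The log2 fold change was -0.08 (SE 0.09, 95% interval -0.26 to 0.10, exact permutation p = 0.396), or -0.05 without mouse 8_3. Clusterin, an extracellular chaperone also called ApoJ (Clu, chromosome 14, 65968483 to 65981547, plus strand), ran from 794 to 889 CPM (median 857) in adropin and from 812 to 1008 (median 873) in saline. These ranges nearly coincided apart from mouse 2_3, the highest of the saline mice, and the log2 fold change was -0.04 (95% interval -0.14 to 0.06, exact permutation p = 0.343). Apod, a lipocalin that in brain comes largely from oligodendrocytes (chromosome 16, 31296192 to 31314808, minus strand), ran from 141 to 312 CPM (median 196) in adropin and from 139 to 330 (median 196) in saline. It varied over more than a 2-fold range within each group. Its log2 fold change of -0.07 (95% interval -0.46 to 0.31, exact permutation p = 0.824) turned to 0.04 without mouse 8_3, and the interval is the widest of the 10.

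Lcat, whose product esterifies cholesterol on the particle surface (chromosome 8, 105939551 to 105943382, minus strand), ran from 19.1 to 23.5 CPM (median 21.4) in adropin, and from 16.9 to 28.8 (median 24.3) in saline. All 8 adropin mice lay below the saline median, but the lowest value of all belonged to saline mouse 8_1. The log2 fold change was -0.16 (SE 0.09, 95% interval -0.35 to 0.03, exact permutation p = 0.159). Without mouse 8_1 it was -0.22 with an unadjusted edgeR p of 0.00674.

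None of the 3 lipid exporters passed the test. Abca1, which passes cholesterol and phospholipid to lipid-poor ApoE (chromosome 4, 53030787 to 53159895, minus strand), ran from 18.7 to 30.8 CPM (median 26.1) in adropin and from 14.9 to 31.0 (median 22.6) in saline. The ranges were nearly the same and 6 of 8 adropin mice were above the saline median, with a log2 fold change of 0.13 (95% interval -0.15 to 0.41, exact permutation p = 0.376). It was 0.06 without saline mouse 5_4 and 0.21 without saline mouse 5_3. Abcg1, which adds sterol to particles that already hold lipid (chromosome 17, 31057675 to 31117988, plus strand), ran from 54.3 to 84.0 CPM (median 72.5) in adropin and from 52.9 to 81.9 (median 68.4) in saline. Adropin mice 4_3 and 3_3 lay well below the other 6, and the log2 fold change was 0.05 (95% interval -0.16 to 0.25, exact permutation p = 0.682). Abca7, a close relative of Abca1 (chromosome 10, 79996494 to 80015572, plus strand), ran from 37.4 to 43.4 CPM (median 39.0) in adropin and from 31.1 to 48.0 (median 37.4) in saline. The adropin values lay inside the saline range, and the log2 fold change was 0.03 (95% interval -0.16 to 0.21, exact permutation p = 0.64), or 0.06 without mouse 8_3. With the first label number as a replicate block it was 0.33, with an unadjusted edgeR p of 0.00666. That estimate rests on the mice of the 3 first label numbers that occur in both groups.

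Neither receptor passed the test. Lrp1, the large receptor that takes up ApoE particles (chromosome 10, 127538161 to 127621148, minus strand), ran from 477 to 637 CPM (median 572) in adropin and from 432 to 601 (median 508) in saline. In 7 of 8 adropin mice it was above the saline median, and the log2 fold change was 0.13 (SE 0.07, 95% interval -0.02 to 0.29, exact permutation p = 0.0925). Lrp8, the receptor that binds ApoE and reelin (chromosome 4, 107802261 to 107876840, plus strand), ran from 59.5 to 73.6 CPM (median 68.7) in adropin and from 50.2 to 76.5 (median 63.3) in saline. In 6 of 8 adropin mice it was above the saline median, but the highest mouse was in saline, and the log2 fold change was 0.12 (SE 0.08, 95% interval -0.05 to 0.29, exact permutation p = 0.145), or 0.08 without mouse 8_3. The unadjusted edgeR p fell below 0.05 for Lrp1 without adropin mouse 4_3 (0.0293) or saline mouse 5_3 (0.0229), and for Lrp8 without saline mouse 6_1 (0.0366). Nr1h2, the liver X receptor gene that is broadly expressed (chromosome 7, 44549616 to 44553951, minus strand), ran from 61.5 to 79.4 CPM (median 72.4) in adropin and from 57.6 to 80.8 (median 72.2) in saline. Its groups coincided, with a log2 fold change of 0.00 (95% interval -0.14 to 0.15, exact permutation p = 0.941) whose sign changed with the scaling, and 0.03 without mouse 8_3. The outer bounds of the 10 intervals, -0.46 and 0.41, both for the members that varied most, lay inside a fold of 1.5 in either direction.

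**Figure D1:**
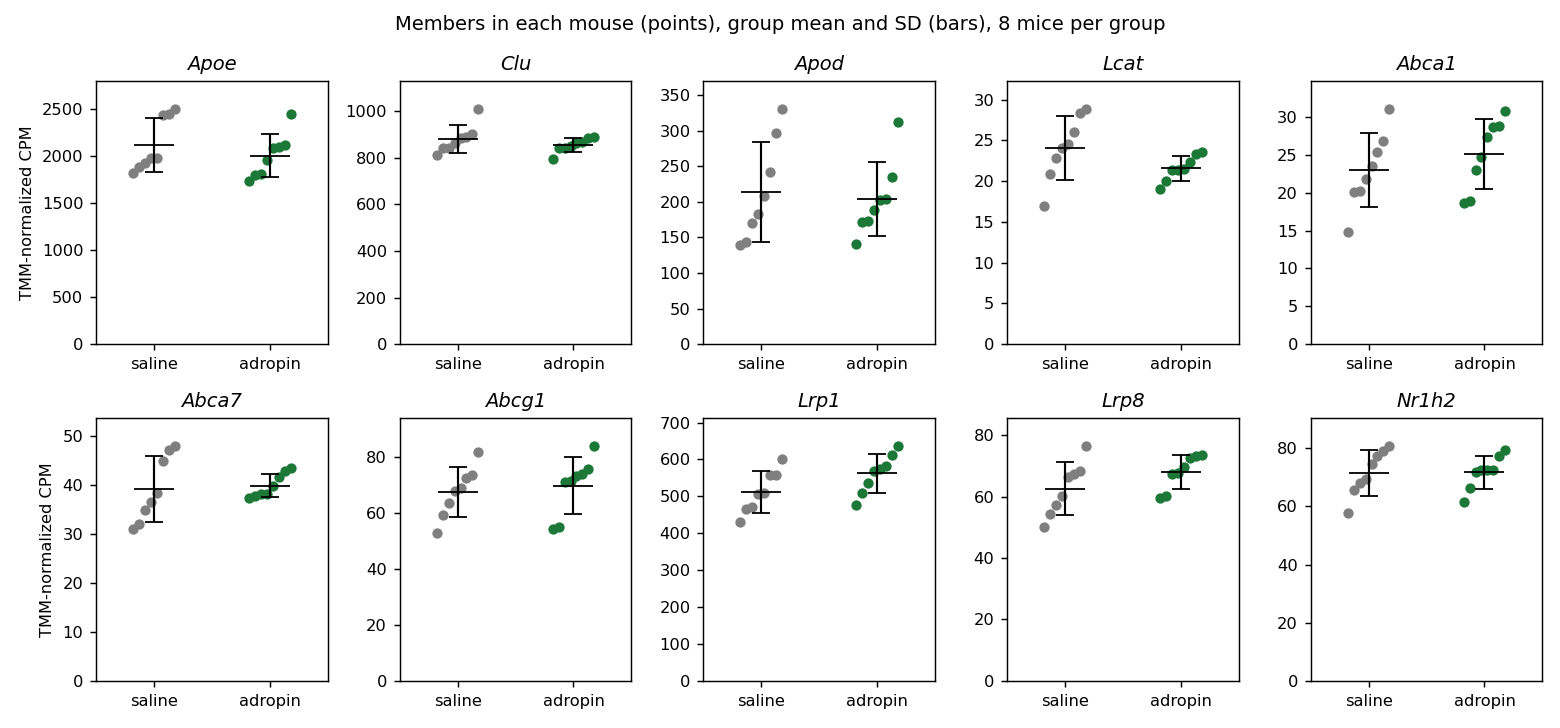
TMM-normalized CPM of each member (y axis, linear from 0) in the 8 saline-treated and 8 adropin-treated mice, 1 point per mouse, with the group mean and SD as bars. The points of both groups overlap in all 10 panels, and saline mice spread more than adropin mice for Lcat and Abca7.

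**Figure D2:**
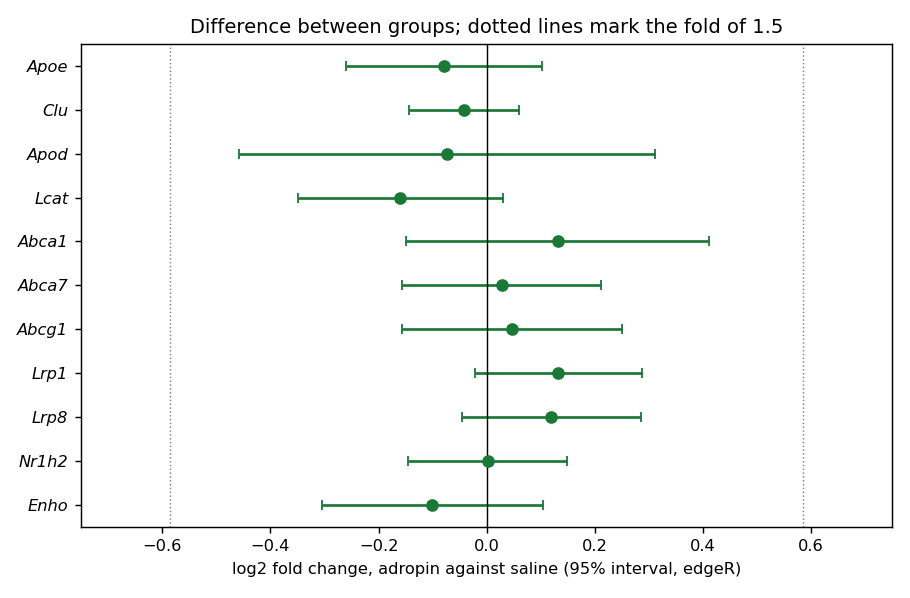
Log2 fold change of adropin against saline for the 10 members and Enho (points) with 95% intervals (bars, edgeR, 8 mice per group), and dotted lines at a fold of 1.5 in either direction. Every interval crosses 0 and none reaches the dotted lines.

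Other genes of the pathway were counted from 5 lists. Of 16 further apolipoprotein genes listed, 3 were expressed enough to be tested, and none had an unadjusted p below 0.05 (edgeR). The most abundant per kilobase were Apoa2, with medians of 0.969 CPM in adropin and 1.97 in saline, and Apoc1, with 1.89 and 1.97. Their log2 fold changes were -0.46 (SE 0.52) and -0.45 (SE 0.34), with wide overlap. Of 25 lipoprotein receptors and partners, 24 were tested, and none had an adjusted p below 0.05 (edgeR). Sort1 and Lrp11, the most abundant of that list per kilobase, had log2 fold changes of 0.15 (edgeR adjusted p = 0.874) and 0.09 (edgeR adjusted p = 0.874). None of 15 ABC lipid transporters tested (19 listed) had an unadjusted p below 0.05, with 0.04 for Abca2, a transporter abundant in myelinating cells, and 0.05 for Abcg4, the neuronal relative of Abcg1.

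Among liver X and retinoid X receptors, coregulators and targets, 21 of 22 were tested and 1 was higher at an unadjusted p below 0.05, the corepressor Ncor1. It ran from 236 to 302 CPM (median 274) in adropin and from 226 to 275 (median 247) in saline, groups that overlapped, with a log2 fold change of 0.13 (unadjusted p = 0.0438, adjusted p = 0.874, edgeR). Leaving out any 1 of 8 mice brought its unadjusted edgeR p above 0.05. The fatty acid desaturase genes Scd2 and Scd1, targets of liver X receptors and the most abundant of the list per kilobase, had log2 fold changes of 0.08 and 0.01 (edgeR adjusted p = 0.891 and 0.995). None of 25 genes of lipoprotein remodelling and sterol handling tested (30 listed) had an unadjusted p below 0.05. Cyp46a1, which hydroxylates brain cholesterol for export, had a log2 fold change of 0.06 (edgeR adjusted p = 0.877), and the fatty acid binding protein gene Fabp3 one of -0.01. The median log2 fold change of the lists ran from -0.46 over the 3 apolipoprotein genes to 0.09 over the receptors and partners, where 20 of 24 genes were above 0. The median over all genes was -0.0019, and no list was tested as a set.

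Whether the members varied with endogenous Enho from mouse to mouse was asked next, with the group means subtracted. Enho ran from 44.1 to 61.0 CPM (median 49.1) in adropin and from 47.3 to 73.5 (median 50.3) in saline, groups that overlapped (log2 fold change -0.10, exact permutation p = 0.4, and -0.03 without mouse 8_3). Of 14948 genes related to Enho in this way, 4866 or 32.6% had an adjusted p below 0.05 (100000 permutations within groups, Benjamini-Hochberg adjustment over all 14948 genes), 14.9% positive and 17.6% negative. At an unadjusted permutation p below 0.05 the share was 43.7%, 20.2% positive and 23.5% negative. Of the 10 members, 5 had an adjusted p below 0.05, of which 2 were positive and 3 negative, and 3 positive and 4 negative members had an unadjusted permutation p below 0.05. The background share alone would give about 3 of 10 genes.

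Apoe and Apod rose with Enho, and Abcg1, Lrp1 and Lrp8 fell. Apoe correlated positively with Enho (Pearson r = 0.89, permutation adjusted p = 0.00276, Spearman rho = 0.83, permutation adjusted p = 0.0071). The 3 saline mice with the highest Apoe (2_3, 5_4 and 8_3) were also the 3 with the highest Enho of their group, and adropin mouse 4_3 was highest in both. Within groups r was 0.87 in adropin (exact permutation p = 0.00506) and 0.92 in saline (exact permutation p = 0.0106), and without mice 5_4 and 8_3, the 2 farthest from the median of Enho before group means were subtracted, it was 0.88. Apod correlated positively as well (r = 0.67, rho = 0.65, permutation adjusted p = 0.0349 and 0.0531), with r = 0.28 in adropin (exact permutation p = 0.509) and 0.86 in saline (exact permutation p = 0.0067). Whether these 2 values differ was not tested, and without mouse 8_3 the pooled value was 0.54 (permutation adjusted p = 0.119), without mice 5_4 and 8_3 0.48. The adjusted threshold was missed without any 1 of 6 mice (2_3, 4_3, 5_3, 5_4, 7_1 or 8_3). Lcat (r = 0.57, rho = 0.56, permutation adjusted p = 0.107 and 0.112) and Clu (r = 0.39, rho = 0.44, permutation adjusted p = 0.322 and 0.213) did not pass the adjusted threshold, and without the 2 farthest mice r was 0.55 and 0.58. Lcat passed it with group means kept (permutation adjusted p = 0.0403) and with Enho as a covariate in edgeR (adjusted p = 0.0478).

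Lrp8 correlated negatively with Enho (r = -0.85, rho = -0.83, permutation adjusted p = 0.00363 and 0.008), as did Lrp1 (r = -0.75, rho = -0.73, permutation adjusted p = 0.0114 and 0.025). In Lrp8 the mouse highest in Enho, 8_3, was the lowest of all, and the value was -0.79 without it. Without the 2 farthest mice r was -0.71 for Lrp8 and -0.70 for Lrp1. Abcg1 was negative too (r = -0.63, rho = -0.59, permutation adjusted p = 0.0348 and 0.0815), with -0.62 without the 2 farthest mice. Its 4 lowest mice, 5_4, 4_3, 3_3 and 6_1, include 3 with high Enho, and its adjusted threshold was missed without any 1 of 6 mice (2_4, 3_3, 4_3, 5_3, 5_4 or 7_1). Abca1 did not pass the adjusted threshold (r = -0.59, rho = -0.46, permutation adjusted p = 0.0635 and 0.185), and r was -0.47 without the 2 farthest mice. It passed in 8 other settings, 3 of them with 1 mouse left out. Abca7 (r = 0.02, rho = -0.02, permutation adjusted p = 0.965 and 0.977) and Nr1h2 (r = 0.10, rho = -0.01, permutation adjusted p = 0.82 and 0.991) showed no relation detectable with 16 mice, and without the 2 farthest mice r was -0.29 and -0.06 (-0.23 and -0.15 without mouse 8_3 alone). After subtraction of group means the 2 farthest mice were 4_3 and 8_3, without which r was 0.89 for Apoe, 0.51 for Apod, -0.75 for Lrp8, -0.72 for Lrp1, -0.64 for Abcg1, -0.56 for Abca1, 0.42 for Lcat and 0.43 for Clu. When mice were blocked by the first label number (replicate block), 15 genes and 0 of the 10 members had an adjusted permutation p below 0.05. In that setting r was 0.96 for Apoe (permutation adjusted p = 0.0682), 0.86 for Apod (0.0972), -0.88 for Lrp8 (0.0963), -0.76 for Lrp1 (0.139) and -0.70 for Abcg1 (0.181).

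The pathway lists were related to Enho in the same way. At an unadjusted permutation p below 0.05 with Enho, 13 of 24 lipoprotein receptors and partners were negative and 1 positive, 6 of 15 ABC lipid transporters were negative and 0 positive, and 7 of 21 liver X and retinoid X receptor genes were negative and 0 positive. Over all genes these shares were 23.5% negative and 20.2% positive. At an adjusted permutation p below 0.05, the 3 lists held 7 of 24, 5 of 15 and 4 of 21 genes, all of them negative. Over all genes 17.6% were negative at that threshold and 32.6% passed it in either direction. The lists were not tested as sets. Lipoprotein remodelling and sterol handling held 5 positive and 6 negative genes of 25, 9 of them at an adjusted permutation p below 0.05, and none of the 3 apolipoprotein genes tested reached either. Examples are the sorting receptor gene Sort1 (r = -0.78, rho = -0.52, permutation adjusted p = 0.0073) and Fabp3 (r = 0.67, rho = 0.69, permutation adjusted p = 0.0299).

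The mice were unevenly placed on the Enho axis. After subtraction of the group means, 10 mice, 5 of each group, lay between -0.22 and -0.06 on the log2 scale and 6 mice, 3 of each group, between 0.12 and 0.43, with a gap of 0.17 between them and one of 0.18 below the highest mouse.

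**Figure D3:**
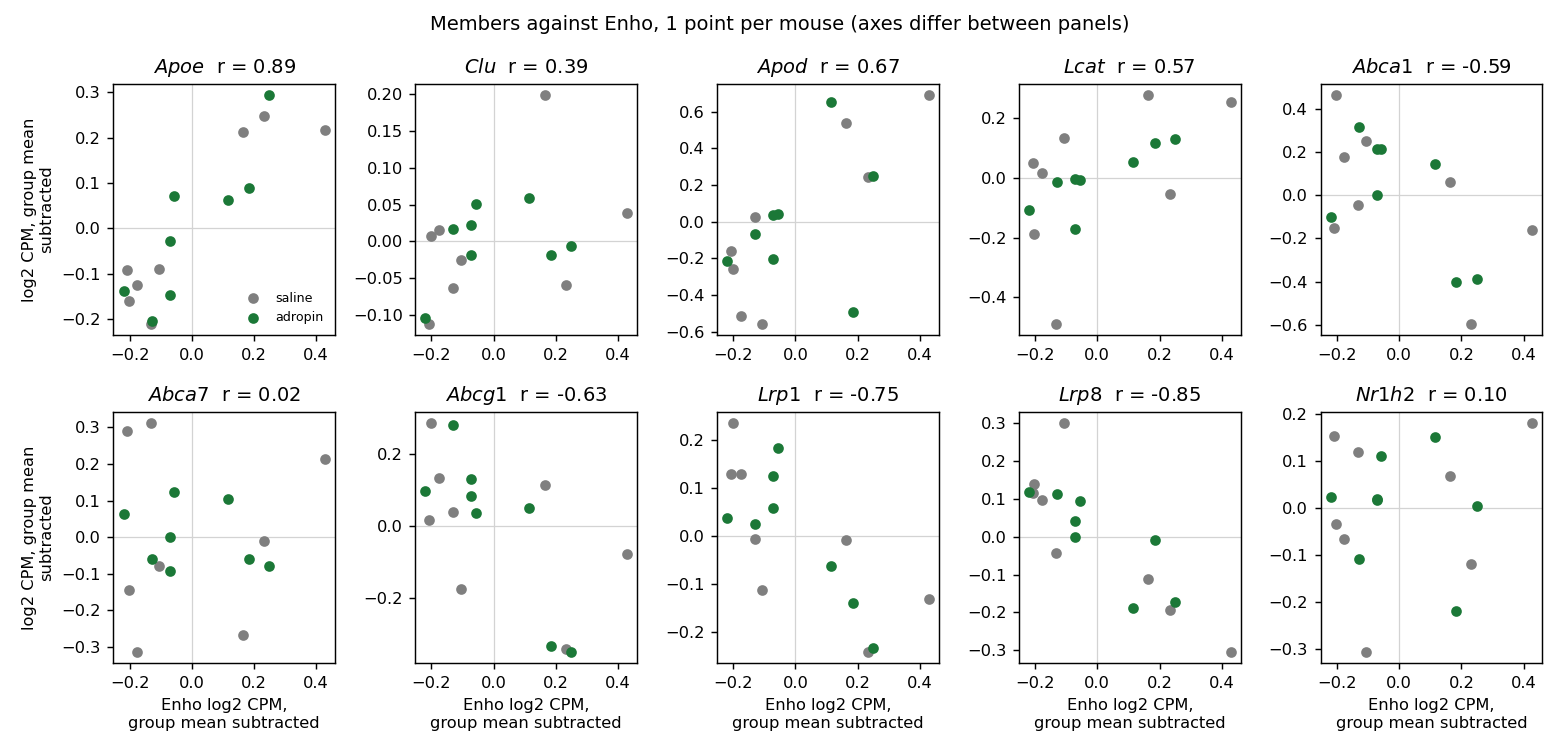
Log2 CPM of each member (y axis) against log2 CPM of Enho (x axis), both with the group mean subtracted, 1 point per mouse (grey saline, green adropin), with Pearson r over 16 mice above each panel. Apoe rises and Lrp8 falls along Enho in both groups, and 6 mice stand to the right of the other 10.

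The members that rose with Enho have short transcripts and those that fell have long ones. Exon length in the GENCODE annotation of GRCm38 is 1269 bases for Enho, 1342 for Lcat, 2138 for Apoe, 2577 for Apod, 3354 for Nr1h2 and 3437 for Clu, and 6752 for Abca7, 7298 for Abcg1, 10363 for Abca1, 10514 for Lrp8 and 17717 for Lrp1. Over all genes the median r with Enho fell from 0.49 in the shortest of 5 equal length classes to 0.18, -0.09, -0.30 and -0.52 in the longest. Across genes, which are not independent replicates, r with Enho and exon length had a Spearman correlation of -0.52. For each mouse, the log2 CPM of every gene, less the gene's mean over the 16 mice, was therefore regressed on log2 exon length. The slope of that line was a measure added after these values were seen. It ran from -0.14 in saline mouse 5_4 to 0.09 in adropin mouse 2_4. In mouse 5_4 short transcripts thus lay higher, against their mean over the mice, than long ones. The slope averaged 0.02 ± 0.05 in adropin and -0.02 ± 0.07 in saline (SD, n = 8, exact permutation p = 0.249).

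Enho correlated with this slope at r = -0.85 (rho = -0.72, permutation adjusted p = 0.0011), and at -0.76 without mice 5_4 and 8_3. So did 44.2% of all genes at an adjusted permutation p below 0.05, and 5 of the 10 members. Apoe gave r = -0.87 (rho = -0.85), Abca1 0.88 (rho = 0.86), Abcg1 0.80 (rho = 0.73), Lrp8 0.78 (rho = 0.74) and Lrp1 0.77 (rho = 0.67), with permutation adjusted p from 0.000168 to 0.00378. Without mice 5_4 and 8_3, the 2 farthest in the slope before group means were subtracted, r was -0.81 for Apoe, 0.83 for Abca1, 0.78 for Abcg1, 0.62 for Lrp8 and 0.63 for Lrp1. Apod gave r = -0.54 (rho = -0.59, permutation adjusted p = 0.0948) and Clu 0.04 (rho = -0.01), and -0.34 and -0.04 without these mice. Without 4_3 and 5_4, the 2 farthest after subtraction, r with the slope was -0.83 for Enho, -0.80 for Apoe, 0.77 for Abca1, 0.63 for Abcg1, 0.73 for Lrp8 and 0.58 for Lrp1.

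With the slope removed from both Enho and each gene, 9.83% of genes had a permutation p below 0.05 and 0.0% an adjusted permutation p below 0.05, the members included. Of the members, 4 had an unadjusted permutation p below 0.05. Clu had the highest value, r = 0.79 (permutation p = 0.0016, adjusted p = 0.326), where it had been 0.39. Apoe kept r = 0.59 (permutation p = 0.0383, adjusted p = 0.475) and Lrp8 -0.57 (permutation p = 0.0466, adjusted p = 0.502). Abca1 turned from -0.59 to 0.59 (permutation p = 0.0267, adjusted p = 0.457) and Abcg1 from -0.63 to 0.15, while Lrp1 went to -0.31 and Apod to 0.47. The direction of Apoe, Apod, Lcat, Clu, Lrp1 and Lrp8 was therefore the same with and without the slope, and that of the sterol exporters Abca1 and Abcg1 was not. What sets the slope, in the tissue or in the libraries, was not tested. With the slope as a covariate in the treatment comparison, the log2 fold change was 0.014 for Apoe, -0.019 for Abca1 and -0.061 for Abcg1.

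**Figure D4:**
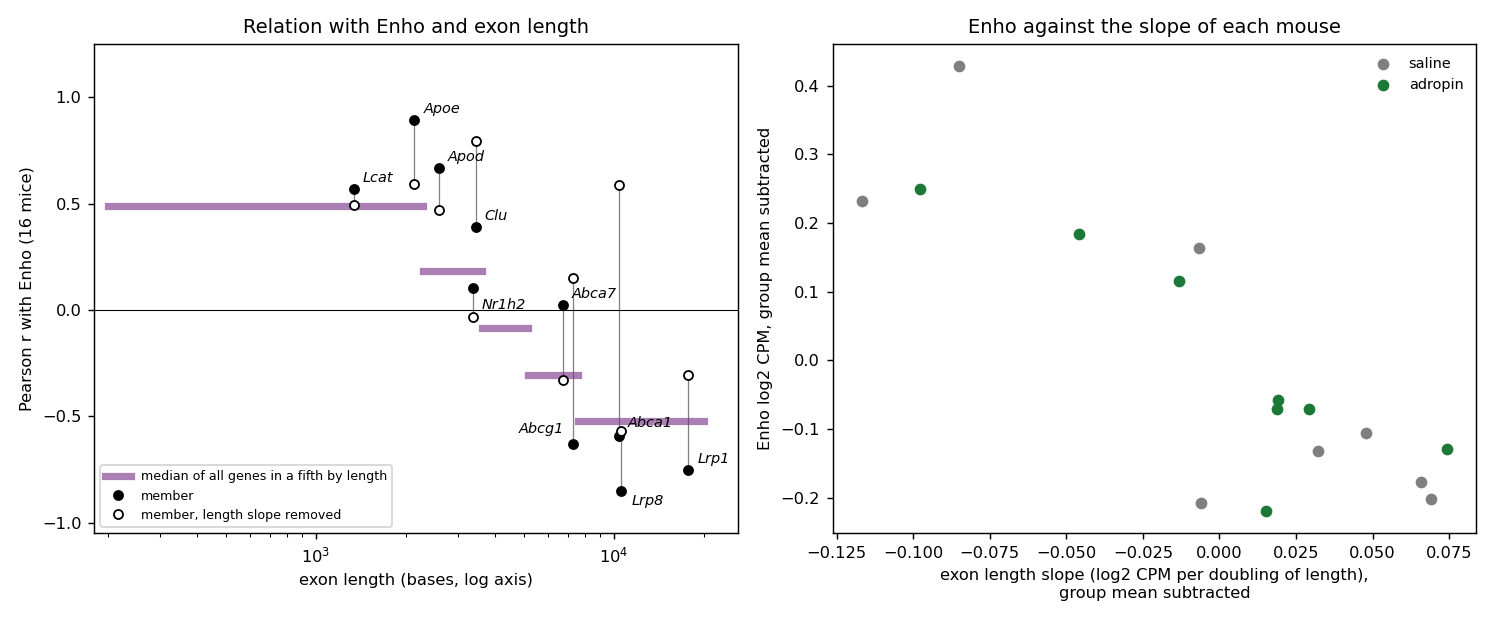
Left, Pearson r with Enho (y axis) against exon length (x axis, log scale) for the 10 members, filled before and open after removal of the exon length slope, and the median r of all genes in each of 5 length classes (bars, the outer classes reaching beyond the axis). Right, log2 CPM of Enho against the exon length slope of each mouse, both with the group mean subtracted, falling from 0.43 and 0.25 at low slopes to below 0 in the 10 mice that lie lowest in Enho.

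Whether the members followed the cell type makeup of the samples was examined with scores, each the mean z-scored log2 CPM of a marker list. Of 100 relations between the 10 members and 10 scores, 3 had an adjusted p below 0.05 (permutation, adjusted over 14949 genes for each score). Apod rose with the oligodendrocyte score (r = 0.76, rho = 0.67, permutation adjusted p = 0.0438), a relation that 2.78% of all genes had. The summed level of the 8 oligodendrocyte markers, all counted in every mouse, ran from 2956 to 8259 CPM in adropin and from 2837 to 8231 in saline. Mouse 7_4 was highest in its group in both that sum and Apod, and mouse 6_1 was lowest of all in both. Leaving out each mouse in turn gave r from 0.69 to 0.82, leaving out the 2 mice farthest in the score (1_3 and 6_1) gave 0.77, leaving out the 2 farthest after subtraction of group means (6_1 and 7_4) gave 0.59, and removing the exon length slope gave 0.82 (permutation adjusted p = 0.0133).

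Lrp8 rose with the score of oligodendrocyte precursors (r = 0.84, rho = 0.72, permutation adjusted p = 0.0127) and Apod fell with it (r = -0.74, rho = -0.71, permutation adjusted p = 0.0317), as 14.3% of all genes did in either direction. The 4 precursor markers, C1ql1, Cspg4, Gpr17 and Pdgfra, summed to between 84.5 and 109 CPM in adropin and between 69.8 and 119 CPM in saline, where mouse 8_3 was lowest and 6_1 highest, the same mice that were lowest and highest in Lrp8. Left out in turn, the mice gave r from 0.79 to 0.90 for Lrp8 and from -0.87 to -0.64 for Apod, and without the 2 mice farthest in the score (6_1 and 8_3) r was 0.69 for Lrp8 and -0.56 for Apod. With the exon length slope removed r was 0.65 for Lrp8 and -0.60 for Apod, and neither passed the adjusted threshold (permutation adjusted p = 0.113 and 0.129), where 6.93% of all genes passed it. Enho had r = -0.63 with the precursor score (rho = -0.45, permutation adjusted p = 0.0887). This was -0.40 without mice 6_1 and 8_3 and -0.09 with the slope removed. Nr1h2 with the oligodendrocyte score reached r = 0.74 (rho = 0.69, permutation adjusted p = 0.0615), and with the slope removed it gave 0.73 (permutation adjusted p = 0.0437) and Abcg1 0.78 (permutation adjusted p = 0.0202), in a setting where 7.92% of all genes passed.

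Clu had the highest correlation of the members with the astrocyte score (r = 0.74, rho = 0.82, permutation p = 0.00256, adjusted p = 0.128), and no gene passed the adjusted threshold for that score, while 19.7% had an unadjusted permutation p below 0.05. Without mice 2_3 and 5_4, the 2 farthest in the score, r was 0.69. The 10 astrocyte markers summed to between 3337 and 5045 CPM in adropin and between 3023 and 4815 CPM in saline. Apoe, made by the same cells, gave r = -0.03 (rho = 0.01), and Enho r = -0.03 (rho = 0.03). With the exon length slope removed, these values became 0.71 for Apoe (permutation p = 0.00603, adjusted p = 0.229) and 0.63 for Enho (permutation p = 0.0244, adjusted p = 0.306). In that setting 5 of the 10 members had an unadjusted permutation p below 0.05 with the astrocyte score, as had 13.9% of all genes, and 0.0% of genes passed the adjusted threshold. The other 4 were Clu (r = 0.79), Abca1 (0.75), Apod (0.74) and Lcat (0.64). Apoe reached r = 0.66 with meningeal fibroblast markers (rho = 0.64) and 0.59 with choroid plexus markers (rho = 0.49), and Enho 0.61 (rho = 0.60) and 0.73 (rho = 0.62), none past the adjusted threshold (permutation adjusted p from 0.134 to 0.15), and without the 2 mice farthest in each score r was 0.51 and 0.40 for Apoe and 0.48 and 0.30 for Enho (with choroid plexus markers 0.44 and 0.41 without the 2 farthest after subtraction of group means). Without mouse 8_3 alone, r was 0.62 and 0.58 for Apoe and 0.53 and 0.53 for Enho. The relation of Apoe with Enho had r = 0.91 without mouse 8_3 (permutation adjusted p = 0.00307) and 0.89 with the astrocyte score removed from both (permutation adjusted p = 0.00135), a score with which both genes had r = -0.03 before the slope was removed. The part of meningeal and choroid plexus tissue in it was not tested further.

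**Figure D5:**
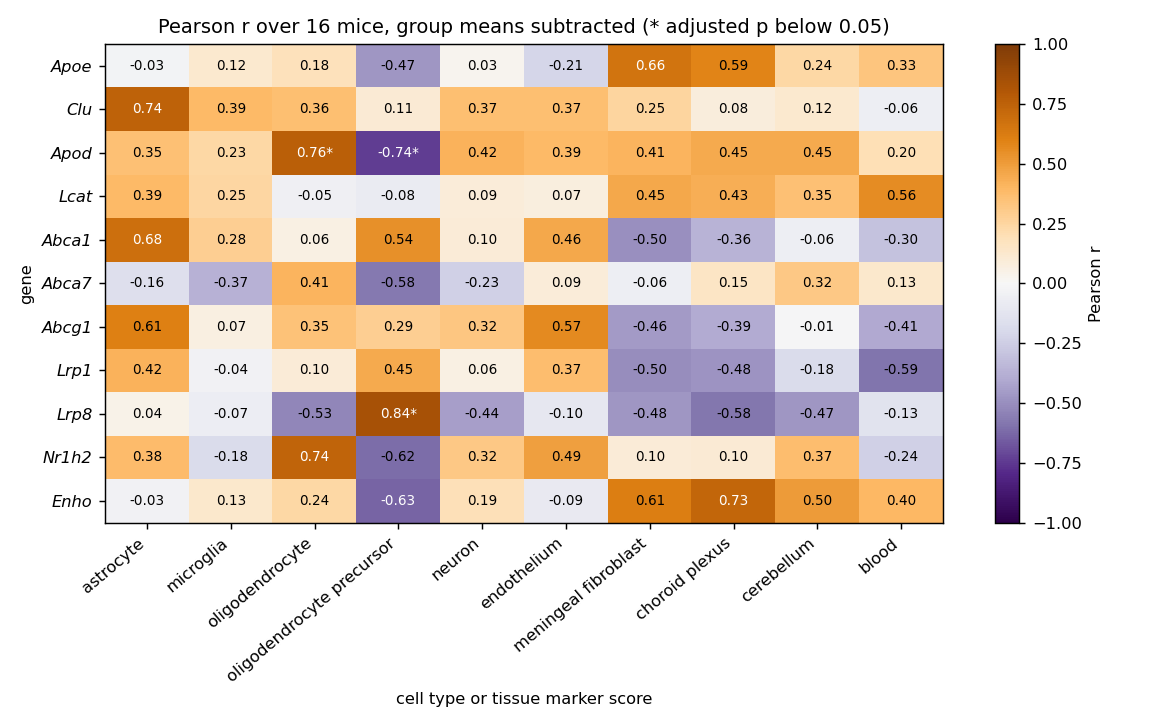
Pearson r over 16 mice between each member or Enho (rows) and each marker score (columns), group means subtracted, coloured from -1 to 1, with an asterisk where the adjusted permutation p was below 0.05. The asterisks stand at Apod with oligodendrocytes (0.76) and precursors (-0.74) and at Lrp8 with precursors (0.84).

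The members did not vary as 1 unit. Over the 45 pairs the median r was 0.02, with 9 pairs above 0.5 and 5 below -0.5, given as a description with no test. Abca1, Abcg1 and Lrp1 varied together (r = 0.82 for Abca1 with Abcg1, 0.82 for Abcg1 with Lrp1 and 0.71 for Abca1 with Lrp1), and all 3 have long transcripts. Apod was opposite to Lrp8 (r = -0.84) and alike with Nr1h2 (0.66), and Apoe was alike with Lcat (0.61) and opposite to Lrp8 (-0.73). Among all genes tested, those with the pattern most like a member over the 16 mice, group means subtracted, were Ccdc85b, Emc6 and S100a1 for Apoe (r = 0.95, 0.93 and 0.93) and Cd9, Syngr2 and Cd82 for Apod (0.95, 0.93 and 0.92). Clu had less close neighbours, among them Arl2bp and Echs1 (0.81 and 0.81), as had Lcat in Prelp, Airn and Glo1 (0.86, 0.81 and 0.78). The neighbours included Slc45a4 and Pcdhb6 for Abca1 (0.95 and 0.95), and were Adcy2, Myo5a and Ank for Abcg1 (0.98, 0.98 and 0.97), and Dvl1, Pxn and Fbxl12 for Abca7 (0.94, 0.93 and 0.92). Lrp1 was most like Ubr4, Rptor and Ep400 (0.98, 0.94 and 0.94), Lrp8 like Traf3, Dlg5 and Dpy19l3 (0.95, 0.94 and 0.93), and Nr1h2 like Gls2, Hhatl and Fam57b (0.95, 0.94 and 0.94). No member shares exon bases with another annotated gene, whereas Enho shares 15 with Dnaic1 on the opposite strand, and whether counting used strand is not given in the sources used here.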

How the data were processed

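RNA from 16 mouse brains was sequenced after poly-A selection as paired reads. The study's methods name STAR for alignment to the GRCm38 assembly of Ensembl release 76 and featureCounts for counting, and the authors deposited unnormalized counts per gene of reads with 1 unambiguous position. Of 40757 entries, 276 repeats of a gene were dropped. TMM factors were calculated from the counts in edgeR 4.0.16 (R 4.3.3). Testing took the 14949 genes above 1 CPM in 7 or more mice, without 355 genes annotated as rRNA. Groups were compared by the quasi-likelihood test of edgeR without covariates, with Benjamini-Hochberg adjustment over all genes, and single members also by a two-sided exact permutation test. Scripts were tested on simulated data. Relations used log2 CPM (prior count 2) with group means subtracted and 100000 permutations of mice within groups. Alternatives were limma-voom 3.58.1, DESeq2 1.42.0, other scalings and filters, covariates, blocks and each mouse left out. The members and lists were chosen with earlier results of these data known. Genes named are the members, Enho, list genes at an unadjusted p below 0.05, the 2 most abundant of each list and the 3 most like each member, and results for some of these are not reported here. Each mouse is 1 replicate. A deposited CPM table was not used.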

Additional observations from a re-analysis of the deposited data

Results flagged for a closer look

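The Clu level of saline-treated mouse 2_3, 1008 CPM, stood farther above the next saline mouse (902 CPM) than Dixon's limit for 8 values allows, the gap being 0.54 of the group's range. It was the 1 value so marked in 22 comparisons of a gene within a group (10 members and Enho, 2 groups), and chance marks about 1 group in 20. Without mouse 2_3 the log2 fold change of Clu went from -0.04 to -0.01, and r of Clu with the astrocyte score from 0.74 to 0.65.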

How the results depend on the processing

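The number of genes with an adjusted p below 0.05 between groups, 0 in edgeR, was 5 with DESeq2, 2 with the second label number as a replicate block, 3 with the exon length slope as a covariate and from 0 to 3 with each mouse left out. Genes with an unadjusted p below 0.05, 596, were 1902 with no filter, 327 with the first label number as a replicate block, 381 with Gm42418, a gene overlapping ribosomal RNA sequence, as a covariate, and from 383 to 1445 with each mouse left out (383 without 2_4, 395 without 1_3, 1445 without 4_3, 980 without 5_3, 920 without 7_1). Members with an unadjusted p below 0.05, 0, were 1 with the first block (Abca7) and from 0 to 1 with each mouse left out (Lrp1 without 4_3 or 5_3, Lrp8 without 6_1, Lcat without 8_1). Log2 fold changes that changed sign lay between -0.061 (Abcg1, 0.05 without a covariate) and 0.10 (Apod, -0.07 without a covariate). They were 0.014 for Apoe, 0.012 for Enho, 0.10 for Apod, -0.019 for Abca1 and -0.061 for Abcg1 with the exon length slope, 0.0062 for Apod with the first block, and -0.016 for Abcg1 with Gm42418. Nr1h2 gave -0.0055 with DESeq2, -0.021 with library size only, -0.0010 with DESeq2 size factors and -0.0050 with Gm42418. With each mouse left out, Abca1 ran from 0.061 (without 5_4) to 0.21 (without 5_3), Abcg1 from 0.0027 (without 5_4) to 0.10 (without 5_3), Apoe from -0.12 to -0.043, Clu from -0.060 to -0.015 (without 2_3), Apod from -0.19 to 0.042, Abca7 from -0.014 to 0.072 and Nr1h2 from -0.039 to 0.039. The unadjusted p of Ncor1 ran up to 0.827 (first block).

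Of genes related to Enho at an adjusted p below 0.05, 4866, there were 3202 by Spearman correlation, 3005 with Gm42418 removed, 15 and 3098 with the first and second label number as a replicate block, 0 with the exon length slope removed and from 2970 (without 4_3) to 5085 with each mouse left out. The 5 members were 3 by Spearman correlation, 0 and 3 with the blocks, 0 with the slope removed and from 3 to 6 with each mouse left out (3 without 4_3, 5_3, 5_4 or 7_1). Apod lost its call without 2_3, 4_3, 5_3, 5_4, 7_1 or 8_3 (r from 0.54 to 0.66), and Abcg1 without 2_4, 3_3, 4_3, 5_3, 5_4 or 7_1 (r from -0.62 to -0.57), with Gm42418 removed (r = -0.53) and, like Apod, with either block. Abca1 gained one without 2_1, 6_2 or 7_4 and with library size only, DESeq2 size factors, group means kept or the astrocyte score removed (r from -0.78 to -0.61), and with Enho as a covariate in edgeR (adjusted p = 0.0323). Lcat gained one with group means kept and in edgeR. Changed signs were 0.59 for Abca1 and 0.15 for Abcg1 with the slope removed. Abca7 gave -0.018 by Spearman correlation, -0.0072 with group means kept, -0.040 with the first block, -0.33 with the slope removed and from -0.23 to 0.18 with each mouse left out. Nr1h2 gave -0.0088 by Spearman correlation, -0.033 with the slope removed and from -0.15 to 0.25 with each mouse left out. No member had an adjusted p below 0.05 with the astrocyte score in any setting run, 0 to 0 with each mouse left out, where r ran from -0.22 to 0.18 for Apoe, -0.27 to 0.069 for Abca7 and -0.13 to 0.15 for Lrp8. With the slope removed it was 0.71 for Apoe, -0.079 for Abca7 and -0.47 for Lrp8. Why these settings moved the counts was not tested. The alternatives with the exon length slope, the marker scores without mouse 8_3 and the mice left out after subtraction of group means were chosen after seeing the data.

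Mice with the same first label number did not deviate together (r from -0.58 to 0.22 over 10 pairs, median -0.09, against -0.05 for other pairs), nor did those with the same second number (from -0.56 to 0.51 over 28 pairs), and the numbers were not used to pair mice. With 8 mice per group, the 95% interval of the fold was narrowest for Clu (0.905 to 1.04) and widest for Apod (0.728 to 1.24), so that the size of difference that could be detected was not the same for each member.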
